A study of Homo sapiens with 18 samples.

Results

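The HOX genes of the 4 clusters and the PBX and MEIS1 genes that encode partners of their proteins were followed through YK-4-279 treatment and resistance in 2 Ewing sarcoma cell lines. Members were all probe sets that the array annotation assigns to a single HOXA, HOXB, HOXC, HOXD, PBX or MEIS1 gene, with no alignment on chromosome 13 or 15. They came to 52 probe sets for 36 genes, out of 20374 probe sets for 12750 genes. The 36 comprised 9 HOXA, 9 HOXB, 7 HOXC and 7 HOXD genes, and 4 PBX and MEIS1 genes. HOXA9, HOXA13, HOXB4, HOXC9, HOXC12, HOXD4 and HOXD8 were not analysed here, and 4 probe sets shared between a HOX gene and another gene were left out of the gene values.

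TC32 and TC71 are established Ewing sarcoma lines, whose tumours arise in bone or soft tissue and depend on EWS-FLI1, an aberrant transcription factor made by a gene fusion. The small molecule YK-4-279 is known as an inhibitor of the contact between EWS-FLI1 and the helicase RHA. The resistant group of each line was 3 clones selected over 7 months in rising concentrations of YK-4-279 that reached 3 µM, named C1, C4 and CP in TC32 and C3, C4A and C5 in TC71 and numbered 1, 2 and 3 in that order. The 72 h group of each line was 3 arrays of the drug-sensitive cells after 72 h in 3 µM YK-4-279, and the parental group was 3 arrays of the same sensitive cells without it. No untreated cells kept in culture for 7 months are among the samples, so the effects of the drug, of picking clones and of long culture cannot be told apart. Whether the clones were harvested in the presence of the compound is not stated in the labels. Nor do they state whether replicates came from separate cultures, and the p-values therefore measure the spread between these arrays, which may be technical.

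HOX genes encode homeodomain transcription factors that give body segments and limb regions their identity, and their order along each cluster matches the order of their expression along the body axis. PBX and MEIS proteins belong to the TALE class of homeodomain proteins, which bind DNA together with HOX proteins and raise their sequence selectivity. Genes at the 5′ end of the HOXD cluster are known to be expressed in Ewing sarcoma and to act in the growth of its cells.

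Values are log2 levels relative to the median of a probe set over the 18 arrays, averaged over the probe sets of a gene. They compare arrays and carry no absolute level, so they cannot show whether a HOX gene, or an Ewing sarcoma marker, was expressed at all. Two-sided moderated tests of limma were adjusted by the Benjamini-Hochberg method over the 12750 genes, and "rose" and "fell" mean an adjusted p below 0.05. Across all 12750 genes the median difference lay between -0.02 and 0.02 in every comparison. Some arrays sat apart from their group. By the 3159 probe sets whose standard deviation (SD) exceeded 0.5, TC32 parental replicate 1 was nearest to TC71 parental replicate 1 (root mean square difference 0.70) and differed by 1.09 on average from the other TC32 parental arrays. TC71 parental replicate 2 was nearest to TC71 72 h replicate 1 (0.67). Clones were less alike than other arrays, with mean differences from their own group of 1.25, 1.37 and 1.27 in TC32 and 1.62, 1.57 and 1.58 in TC71, against at most 1.09 elsewhere. TC32 clone C1 and all 3 TC71 clones were nearest to an array outside their group, and C1 and TC71 clone C5 were both nearest to TC32 parental replicate 1. Counts of called members are also given without each array in turn, and without 4 arrays together, namely TC32 parental replicate 1, TC71 parental replicate 2, TC71 72 h replicate 2 and TC32 clone C4, which an earlier reading of these data had set apart.

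Much of the set gave flat readings. Of the 36 genes, 8 varied by an SD under 0.05 over the 18 arrays, namely HOXA2, HOXA3, HOXA6, HOXA7, HOXB1, HOXB3, HOXB8 and HOXD12, and 14 of the 52 probe sets did so. Of all probe sets on the array, 35.0% were this flat. The largest SD in each cluster belonged to HOXA10 (0.651), HOXB2 (0.856), HOXC10 (0.704) and HOXD1 (0.498), and MEIS1 had an SD of 0.569. The heat map of members shows where the variation lay.

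**Figure D1:**
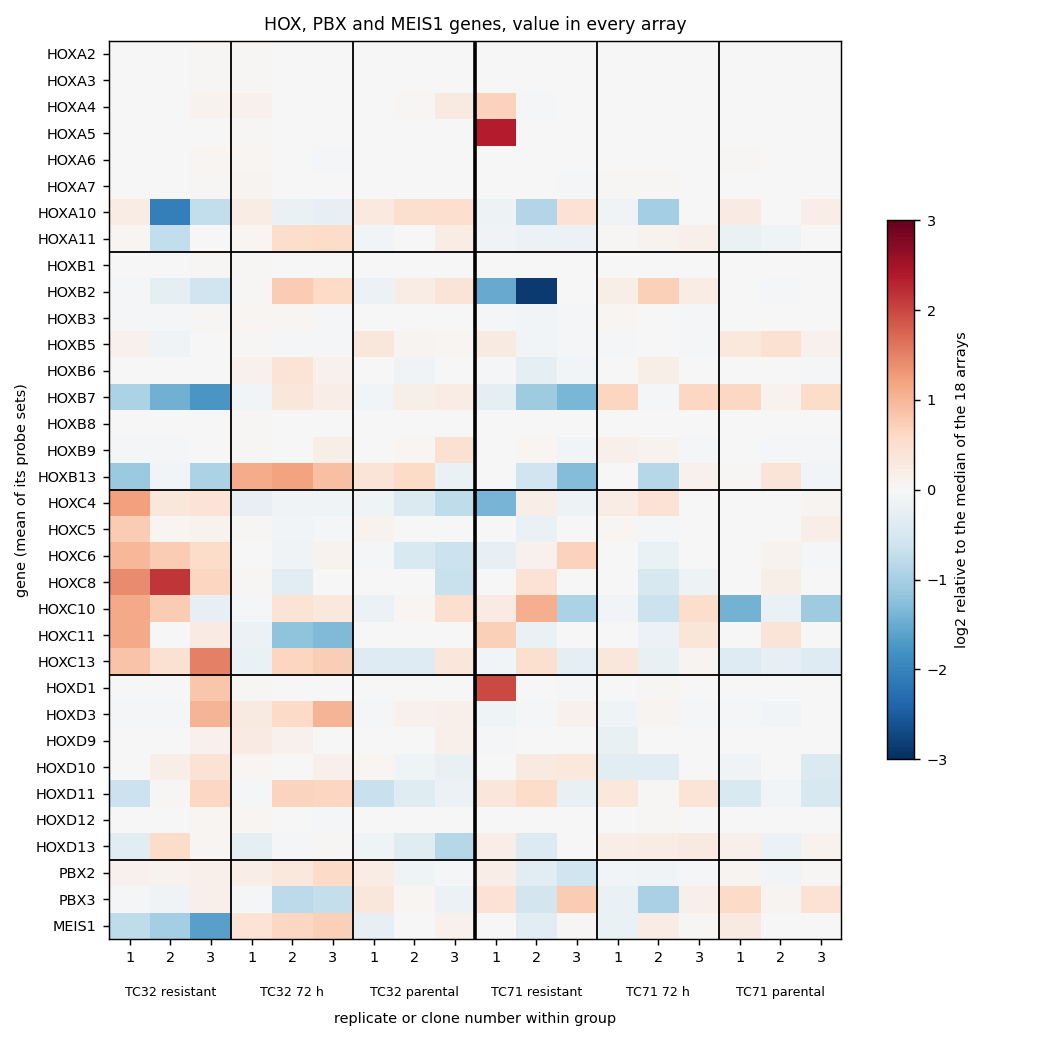
Log2 level of 34 of the 36 genes (rows) in each of the 18 arrays (columns, by group), relative to the median of the 18 arrays, from blue (lower) to red (higher). HOXB7 is low in the resistant columns of both lines, HOXC genes are high in the TC32 resistant columns, MEIS1 is low in the same columns, and most HOXA rows are near 0 throughout except in TC71 clone C3.

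RefSeq promoter sequences were at hand for 19 of the 36 members, from 250 bases before to 50 after the annotated start in GRCh38.p14. They are shown for the genes that passed the test in some comparison and had an entry, MEIS1 and HOXA11, and for HOXD1, the most variable HOXD gene. The 3 serve as examples of the sequence searched for the motifs named below. Capitals mark the homeodomain core TAAT, or its complement ATTA where the match is on the other strand. MEIS1 lies on chr2:66434875-66435174 (plus strand), HOXA11 on chr7:27185183-27185482 (minus strand) and HOXD1 on chr2:176188418-176188717 (plus strand).
MEIS1: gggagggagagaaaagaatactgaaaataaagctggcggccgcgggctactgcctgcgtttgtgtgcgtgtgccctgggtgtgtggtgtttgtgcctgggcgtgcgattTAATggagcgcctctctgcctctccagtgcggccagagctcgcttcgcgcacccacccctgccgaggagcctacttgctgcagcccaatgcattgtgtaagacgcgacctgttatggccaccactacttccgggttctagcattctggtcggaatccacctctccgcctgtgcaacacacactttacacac
HOXA11: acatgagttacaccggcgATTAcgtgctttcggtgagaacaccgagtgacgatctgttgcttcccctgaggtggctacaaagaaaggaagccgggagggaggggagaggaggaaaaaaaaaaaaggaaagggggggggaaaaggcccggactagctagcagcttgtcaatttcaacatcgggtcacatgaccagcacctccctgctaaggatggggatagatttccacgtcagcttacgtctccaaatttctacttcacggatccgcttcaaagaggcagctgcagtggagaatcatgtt
HOXD1: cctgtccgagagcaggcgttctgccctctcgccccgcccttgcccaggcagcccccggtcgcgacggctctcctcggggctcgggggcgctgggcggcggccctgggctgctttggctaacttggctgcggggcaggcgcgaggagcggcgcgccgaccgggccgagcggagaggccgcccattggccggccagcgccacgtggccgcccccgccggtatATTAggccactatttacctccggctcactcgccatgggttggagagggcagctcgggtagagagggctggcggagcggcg
The core began 141 bases before the start of MEIS1 on the printed strand, and 232 and 30 bases before those of HOXA11 and HOXD1 on the other strand. The G and C content was 58.3% in MEIS1, 51.3% in HOXA11 and 74.3% in HOXD1. Searched on both strands, TAAT was found for 15 of the 19 members (78.9%) and in 50.2% of all 35116 promoters of the same length. Members were counted as genes and the background as single promoters, and a gene can have several promoters. The shares of members and of all promoters are therefore not directly comparable, here and for the motifs that follow. The PBX-HOX motif TGATNNAT occurred in 3 of the 19 and in 7.4% of all, the MEIS motif TGACAG in 3 of the 19 and in 15.8% of all, and the repeat GGAAGGAA, of the kind EWS-FLI1 binds, in 1 of the 19 and in 3.7% of all. TGATNNAT can contain TAAT, and of these 4 motifs only TAAT was found in the printed windows. A match describes letters and is no evidence of binding.

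The comparison of resistant clones with parental cells asks which of these genes differ in clones selected in rising concentrations of the compound. In the TC32 clones HOXC6 and HOXC8 rose and HOXB7 and MEIS1 fell, 4 of 36 members, where 6.31% of all genes were called (3.19% higher, 3.12% lower). In the TC71 clones only HOXB7 passed, 1 of 36, where 1.09% of all genes were called. The groups did not overlap for 7 members in TC32 and 13 in TC71, against 21.2% and 41.2% of all genes.

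HOXB7, a gene of the middle of the HOXB cluster, was the member called in both lines. In TC32 it stood at -0.95, -1.44 and -1.74 in clones C1, C4 and CP, at -0.08, 0.35 and 0.20 after 72 h, and at -0.08, 0.18 and 0.23 in parental cells. In TC71 it stood at -0.30, -1.07 and -1.36 in clones C3, C4A and C5, at 0.64, -0.06 and 0.62 after 72 h, and at 0.63, 0.11 and 0.56 in parental cells. All 6 clones were below every treated and every parental array of their line. HOXB7 fell by 1.48 in the TC32 clones (standard error, SE, 0.28; adjusted p = 0.00934) and fell by 1.34 in the TC71 clones (SE 0.28; adjusted p = 0.046). The TC32 change minus the TC71 change was -0.14 (SE 0.40; adjusted p = 0.862). Its 3 probe sets align to the same stretch of chromosome 17, between 46684593 and 46688379 (array annotation, genome build not given in the sources used here), so they are not independent. They differed by -1.41, -1.56 and -1.48 in TC32 and by -1.20, -1.44 and -1.39 in TC71. The TC32 call was lost without TC32 parental replicate 3 (adjusted p = 0.0504). The TC71 call was lost in 4 of 6 fits that left out 1 array: without TC71 parental replicate 1 (adjusted p = 0.188) or 3 (0.183) and without clone C4A (0.0915) or C5 (0.0649).

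MEIS1, a TALE partner of HOX and PBX proteins on chromosome 2 at 66662923-66799613 of the array annotation, changed in TC32. It stood at -0.76, -1.02 and -1.63 in the TC32 clones, at 0.42, 0.63 and 0.72 after 72 h, and at -0.24, -0.02 and 0.12 in parental cells. The 3 groups did not overlap, with treated arrays highest and clones lowest. MEIS1 fell by 1.09 in the clones relative to parental cells (SE 0.19; adjusted p = 0.00627), while its difference of 0.63 at 72 h did not pass (SE 0.19; adjusted p = 0.113). In TC71 it stood at -0.02, -0.32 and 0.03 in clones, at -0.20, 0.22 and 0.03 after 72 h, and at 0.26, -0.01 and 0.01 in parental cells, and the groups overlapped. The difference between the lines in the change of the clones, -0.90 (SE 0.27), did not pass over all genes (adjusted p = 0.197).

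HOXC6 and HOXC8, which pattern the thoracic region of the body axis, were higher in every TC32 clone than in every other TC32 array. HOXC6, on chromosome 12 at 54422193-54424520, stood at 1.0, 0.76 and 0.55 in clones, at 0.02, -0.11 and 0.11 after 72 h, and at -0.03, -0.45 and -0.65 in parental cells. HOXC8, on chromosome 12 at 54403068-54405165, stood at 1.42, 2.14 and 0.65 in clones, at 0.03, -0.35 and -0.01 after 72 h, and at 0.01, 0.00 and -0.67 in parental cells. HOXC6 rose by 1.15 (SE 0.21; adjusted p = 0.00711) and HOXC8 by 1.62 (SE 0.30; adjusted p = 0.00875). Without TC32 parental replicate 3, HOXC8 gave an adjusted p of 0.0504, while HOXC6 and MEIS1 passed in all 6 fits that left out 1 array (highest adjusted p 0.0428 and 0.0388). In TC71, HOXC6 stood at -0.25, 0.14 and 0.70 in clones, at 0.01, -0.20 and -0.02 after 72 h, and at -0.01, 0.11 and -0.06 in parental cells. TC71 HOXC8 stood at 0.00, 0.44 and -0.02 in clones, at 0.01, -0.47 and -0.15 after 72 h, and at -0.01, 0.18 and -0.01 in parental cells. Neither gene separated the TC71 groups, and the line differences of 0.97 for HOXC6 (adjusted p = 0.197) and 1.54 for HOXC8 (adjusted p = 0.17) did not pass.

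**Figure D2:**
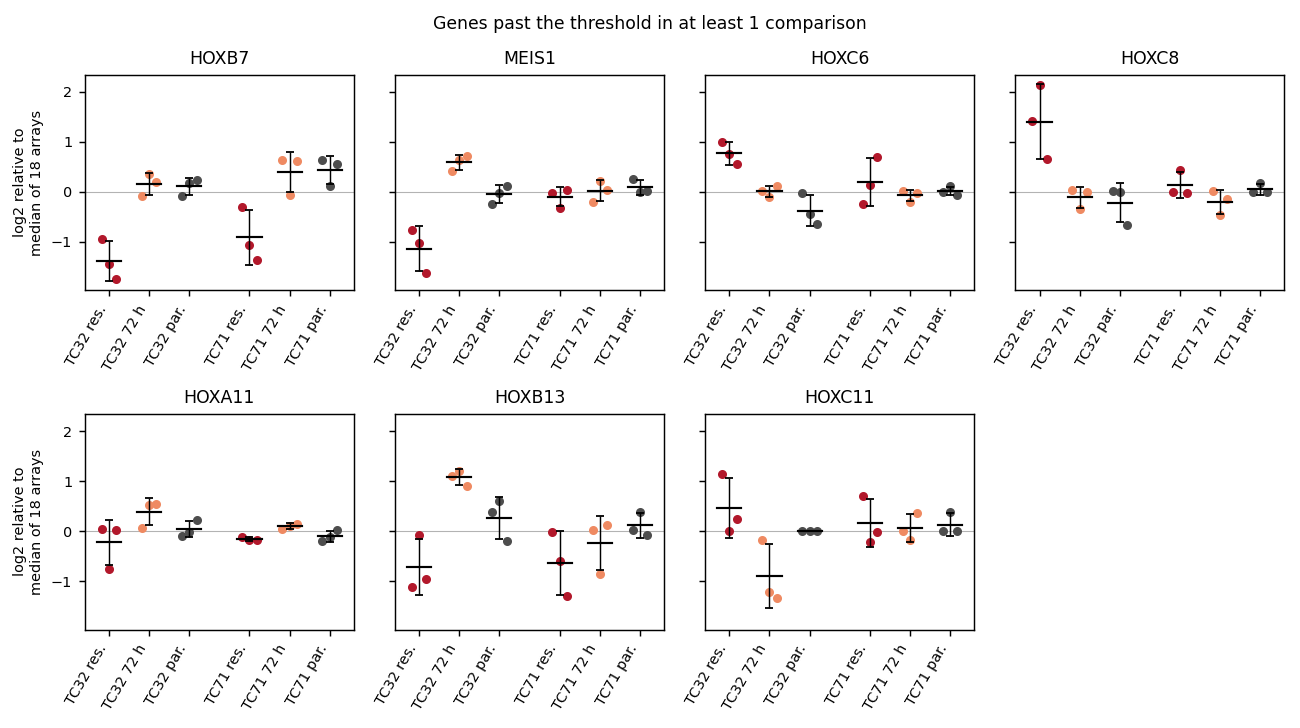
Log2 level relative to the median of 18 arrays for 7 genes past the threshold in at least 1 comparison. Points are arrays (red, resistant clones; orange, 72 h; grey, parental), bars are means and whiskers 1 SD (n = 3). HOXB7 is lower in the clones of both lines, whereas MEIS1, HOXC6 and HOXC8 separate the clones from the other groups in TC32 alone among these arrays.

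All 7 genes of the HOXC cluster had a positive difference from parental cells in the TC32 clones, where 7747 of the 12750 genes had one. Their median was 1.07 against a median of 0.00 for all genes, and 2 of the 7 passed. The count stayed at 7 of 7 after repeated quantile normalization, after centring each array on its median and without the 4 arrays named above, and leaving out single arrays gave medians from 0.81 to 1.15. HOXC13 and HOXC4, at opposite ends of the cluster, differed by 1.07 (adjusted p = 0.0619) and 1.09 (adjusted p = 0.0751). HOXC13 stood at 0.85, 0.45 and 1.50 in the TC32 clones and at -0.38, -0.38 and 0.34 in parental cells. HOXC4 stood at 1.22, 0.34 and 0.40 in the TC32 clones and at -0.12, -0.43 and -0.77 in parental cells. For both genes every clone was above every parental array. For HOXC5, HOXC10 and HOXC11 the clones overlapped the parental arrays. Each HOXC gene was read by 1 probe set. That of HOXC4 aligns to 54410714-54449814 on chromosome 12, a stretch that holds the alignments of HOXC5 and HOXC6, so these genes may not be independent. In the TC71 clones, where 4288 of the 12750 genes were higher, 5 of the 7 HOXC genes were, with a median of 0.09 and none past the threshold, and this count was 4 of 7 after repeated quantile normalization.

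The 8 genes listed as flanks on either side of the HOXC cluster had a median difference of 0.01 in the TC32 clones. Of these, 6 were higher and 2 lower, and none passed by limma (2 at an unadjusted p below 0.05, lowest adjusted p 0.213). Of all 12750 genes, 2520 were below that unadjusted limit in this comparison. Next to the HOXB cluster, 6 of 9 flanking genes were lower in the TC32 clones with a median of -0.19, and 2 passed. ATP5MC1, a subunit of mitochondrial ATP synthase, fell by 0.82 (SE 0.18; adjusted p = 0.0189) and SNF8, a subunit of the endosomal ESCRT-II complex, fell by 0.63 (SE 0.13; adjusted p = 0.0117). Relative to the 72 h arrays, SNF8 fell by 1.09 in the TC32 clones (SE 0.13; adjusted p = 0.000284) and NFE2L1, a stress-responsive transcription factor, fell by 1.67 (SE 0.52; adjusted p = 0.0488). Within the HOXB cluster itself 6 of 9 genes were lower in the TC32 clones than in parental cells (median -0.15), where 5003 of the 12750 genes were lower. In the TC71 clones 8 of 9 were lower (median -0.12), as were 7 of 9 flanks, where 8462 of the 12750 genes were lower. The HOXB counts include the flat genes HOXB1, HOXB3 and HOXB8, and no TC71 flank passed (2 at an unadjusted p below 0.05). Of all 12750 genes, 1429 were below that limit in the TC71 clones. None of the 6 HOXA and 8 HOXD flanking genes passed in the clones of either line, and 1 HOXD flank in TC32 had an unadjusted p below 0.05.

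**Figure D3:**
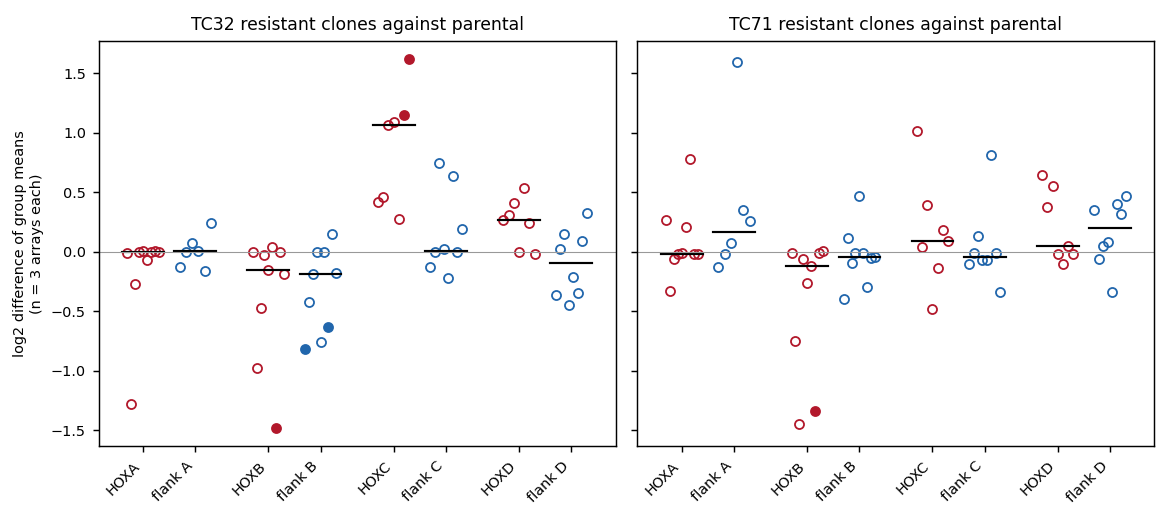
Log2 difference of resistant clones from parental cells for each gene of the 4 HOX clusters (red) and each gene listed as flanking them (blue), in TC32 (left) and TC71 (right). Filled points passed the threshold and bars are medians. In TC32 all 7 HOXC genes lie above 0 with a median of 1.07, against 0.01 for the HOXC flanks.

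Other HOXC and HOXB genes varied from clone to clone. HOXC10 stood at 1.13, 0.75 and -0.25 in the TC32 clones, at -0.06, 0.41 and 0.31 after 72 h, and at -0.18, 0.06 and 0.49 in parental cells. In TC71 it stood at 0.24, 1.08 and -0.95 in clones, at -0.08, -0.64 and 0.53 after 72 h, and at -1.41, -0.21 and -1.06 in parental cells. The clones overlapped the parental arrays in both lines. HOXB2, a gene of the 3′ end of its cluster that acts in hindbrain patterning, stood at -1.51, -2.88 and -0.01 in the TC71 clones, at 0.18, 0.72 and 0.22 after 72 h, and at 0.00, -0.05 and 0.00 in parental cells. Clones C3 and C4A were low and clone C5 was level with parental cells, and the mean difference of -1.45 did not pass (SE 0.51; adjusted p = 0.247). In TC32, HOXB2 stood at -0.06, -0.30 and -0.60 in clones, at 0.04, 0.76 and 0.59 after 72 h, and at -0.17, 0.23 and 0.38 in parental cells.

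The HOXA cluster was flat in most arrays, with none of its 9 genes past the threshold against parental cells. HOXA10 and HOXA11 varied in several arrays, and other HOXA genes were high in TC71 clone C3. HOXA5, which acts in lung and thoracic skeleton development, stood at 2.36 in clone C3 and at -0.01 in both clones C4A and C5, and the 6 remaining TC71 arrays lay between -0.01 and 0.01. HOXA4 stood at 0.68 in clone C3, at -0.03 and -0.01 in clones C4A and C5, and between -0.02 and 0.02 in the treated and parental TC71 arrays. With 1 clone of 3 high, the mean difference of HOXA5, 0.78, had an SE of 0.44 (adjusted p = 0.576). HOXA4 and HOXA5 were singled out after their values were seen.

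HOXA10, which acts in uterine and blood development, stood at 0.23, -2.05 and -0.75 in the TC32 clones, at 0.22, -0.21 and -0.25 after 72 h, and at 0.30, 0.47 and 0.50 in parental cells. All 3 clones were below the parental arrays and clone C4 was far below the others, giving a difference of -1.28 that did not pass (SE 0.47; adjusted p = 0.136). In TC71 it stood at -0.15, -0.87 and 0.44 in clones, at -0.11, -1.02 and 0.01 after 72 h, and at 0.24, -0.02 and 0.19 in parental cells.

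In the HOXD cluster, HOXD1 was near 0 except in 1 clone of each line. It stood at -0.01, 0.00 and 0.83 in the TC32 clones and at 1.99, -0.01 and -0.03 in the TC71 clones, and its 6 treated and 6 parental arrays lay between -0.02 and 0.04. Of its 2 probe sets on chromosome 2, the one aligned to 177053306-177055635 carried the signal, at 1.62 in TC32 clone CP and 4.01 in TC71 clone C3, while the one aligned to 177053306-177057431 had an SD of 0.019. The difference from parental cells in TC71, 0.65, did not pass (SE 0.41; adjusted p = 0.626).

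The 5′ HOXD genes HOXD10, HOXD11 and HOXD13, which pattern the distal limb, did not pass in any comparison. HOXD10 stood at 0.00, 0.21 and 0.44 in the TC32 clones, at 0.05, 0.00 and 0.16 after 72 h, and at 0.07, -0.13 and -0.23 in parental cells. In TC71 HOXD10 stood at -0.01, 0.28 and 0.32 in clones, at -0.35, -0.34 and -0.01 after 72 h, and at -0.11, 0.00 and -0.44 in parental cells. Its groups overlapped in both lines.

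HOXD11 stood at -0.64, 0.04 and 0.63 in the TC32 clones, at -0.03, 0.67 and 0.65 after 72 h, and at -0.66, -0.37 and -0.17 in parental cells. In TC71 HOXD11 stood at 0.33, 0.54 and -0.23 in clones, at 0.32, 0.03 and 0.40 after 72 h, and at -0.45, -0.08 and -0.49 in parental cells. Every treated array was above every parental array of its line, and the differences of 0.83 in TC32 (SE 0.30; adjusted p = 0.184) and 0.59 in TC71 (SE 0.30; adjusted p = 0.549) did not pass. HOXD13 stood at -0.35, 0.56 and 0.06 in the TC32 clones, at -0.26, -0.06 and 0.03 after 72 h, and at -0.14, -0.37 and -0.85 in parental cells. In TC71 HOXD13 stood at 0.20, -0.41 and -0.01 in clones, at 0.19, 0.22 and 0.28 after 72 h, and at 0.16, -0.17 and 0.10 in parental cells. As a cluster, 6 of 7 HOXD genes were higher in the TC32 clones with a median of 0.27, but without clone CP the count was 3 of 7 and the median -0.01.

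The share of members that moved by more than 1 on the log2 scale from the parental mean was also counted in each clone. In TC32 the share was 19.4% of the 36 members in clone C1, 13.9% in C4 and 16.7% in CP, against 5.0%, 8.3% and 7.3% of all genes. In TC71 it was 13.9% in clone C3, 13.9% in C4A and 5.6% in C5, against 6.9%, 6.3% and 3.8% of all genes, so C5 lay near the share of all genes. In the TC32 72 h arrays it was 0.0%, 5.6% and 5.6%, against 2.2%, 3.9% and 5.8% of all genes. The TC71 72 h arrays gave 0.0%, 5.6% and 2.8%, against 2.1%, 5.4% and 2.2%. These shares are descriptions of single arrays and were not tested. Members past this limit differed between clones: in C1 they were 5 HOXC genes above it and HOXB7 and HOXB13 below it, whereas in C5 they were HOXB7 and HOXB13, both below it.

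**Figure D4:**
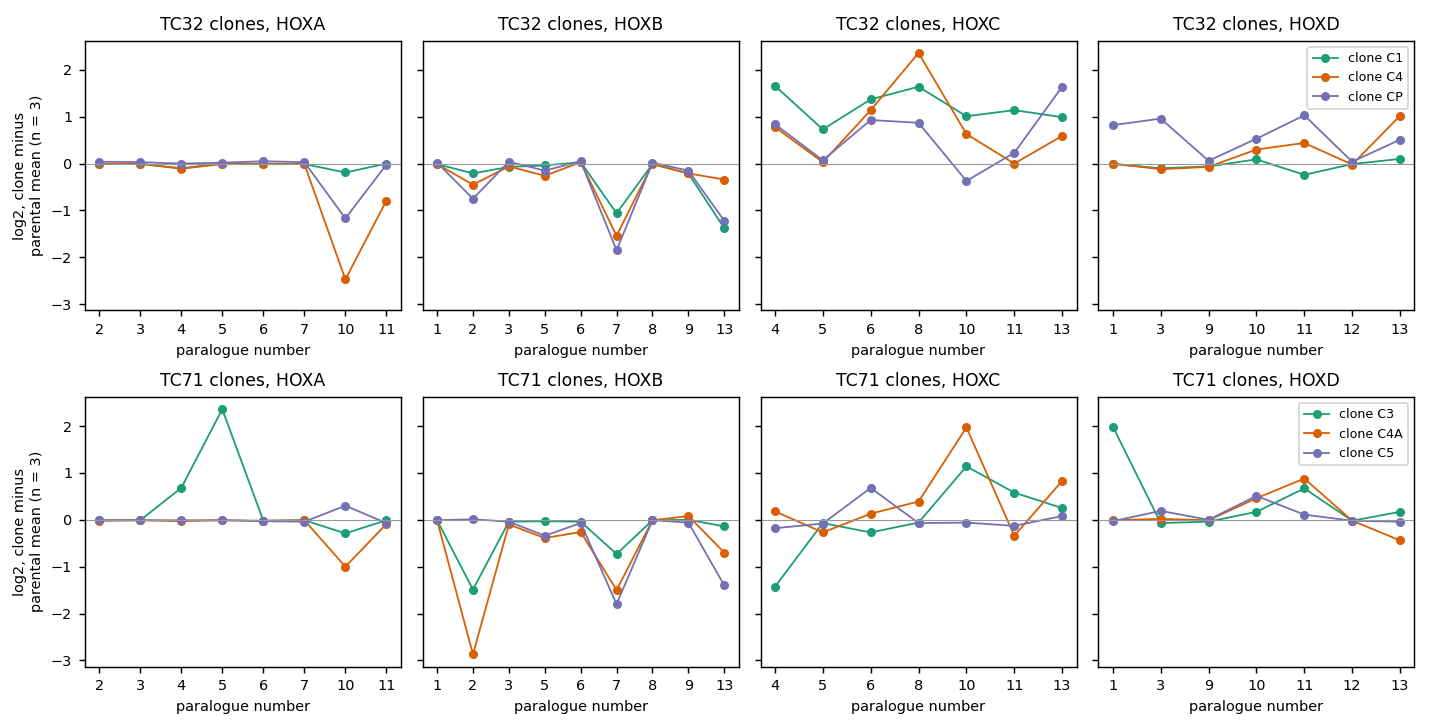
Log2 level of each resistant clone minus the mean of the 3 parental arrays of its line (vertical) for genes of each HOX cluster in order of paralogue number (horizontal), TC32 clones above and TC71 clones below. HOXB7 dips in all 6 clones, HOXC genes lie at or above 0 in the TC32 clones except HOXC10 in clone CP, and HOXA5 and HOXD1 peak in TC71 clone C3.

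The comparison of resistant clones with the 72 h group sets the selected clones beside sensitive cells after short treatment. It uses the same clone arrays as the comparison with parental cells. In TC32, 8 of 36 members passed, 4 higher and 4 lower, where 14.8% of all genes were called (7.43% higher, 7.40% lower), and in TC71 1 of 36 did, where 2.50% were called. The groups did not overlap for 13 members in TC32 and 4 in TC71, against 28.0% and 19.8% of all genes. MEIS1 fell by 1.72 in the TC32 clones relative to the 72 h arrays (SE 0.19; adjusted p = 0.000244) and HOXB7 fell by 1.53 (SE 0.28; adjusted p = 0.00377). HOXC8 rose by 1.52 (SE 0.30; adjusted p = 0.00581) and HOXC6 by 0.77 (SE 0.21; adjusted p = 0.025), and all 7 HOXC genes were higher with a median of 0.77. In TC71, HOXB7 fell by 1.31 (SE 0.28; adjusted p = 0.0326), a call lost without TC71 72 h replicate 1 (adjusted p = 0.124) or 3 (0.123) and without clone C4A (0.0626) or C5 (0.0682).

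HOXB13, HOXC11 and HOXA11 passed against the 72 h arrays of TC32 and in no other comparison. HOXB13, the most 5′ gene of its cluster and a factor of prostate and tail development, stood at -1.12, -0.08 and -0.96 in the TC32 clones, at 1.11, 1.21 and 0.90 after 72 h, and at 0.39, 0.60 and -0.20 in parental cells. Treated arrays were the highest and clones mostly the lowest, and HOXB13 fell by 1.79 in clones relative to treated cells (SE 0.36; adjusted p = 0.00595). In TC71 HOXB13 stood at -0.02, -0.59 and -1.29 in clones, at 0.02, -0.86 and 0.12 after 72 h, and at 0.03, 0.39 and -0.08 in parental cells, with overlap between all groups.

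HOXC11, which acts in the hindlimb, stood at 1.14, 0.00 and 0.24 in the TC32 clones, at -0.17, -1.21 and -1.33 after 72 h, and at 0.00 in all 3 parental arrays. It rose by 1.36 in clones relative to treated cells (SE 0.34; adjusted p = 0.0178). In TC71 HOXC11 stood at 0.71, -0.21 and -0.01 in clones, at 0.00, -0.17 and 0.37 after 72 h, and at 0.00, 0.39 and 0.00 in parental cells. The TC71 groups overlapped.

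HOXA11, which acts in the forearm and uterus, stood at 0.05, -0.75 and 0.02 in the TC32 clones, at 0.07, 0.53 and 0.55 after 72 h, and at -0.09, -0.01 and 0.23 in parental cells. It fell by 0.61 in clones relative to treated cells (SE 0.18; adjusted p = 0.0411), with a gap of 0.02 between the highest clone and the lowest treated array. Of its 2 probe sets on chromosome 7, the one at 27222414-27224763 was flat and the one at 27220775-27222472 gave a difference of -1.21. In TC71 HOXA11 stood at -0.11, -0.18 and -0.17 in clones, at 0.04, 0.10 and 0.15 after 72 h, and at -0.20, -0.12 and 0.02 in parental cells.

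Several of these TC32 calls rested on single arrays. HOXC11 lost its call without 72 h replicate 2 or 3 or clone C1 (adjusted p 0.0754, 0.0863 and 0.0662), and HOXA11 without 72 h replicate 2 or 3 or clone C4 (0.146, 0.155 and 0.113). HOXC6 lost it without 72 h replicate 2 or 3 or clone C1 or C4 (0.0589 to 0.0898). MEIS1, HOXB7, HOXB13 and HOXC8 passed in all 6 fits. Without the 4 arrays 5 members passed, and HOXA11 and HOXC6 were among those that did not.

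PBX2 and PBX3, TALE cofactors that bind DNA with HOX proteins, did not pass in any comparison. PBX2 stood at 0.13, 0.10 and 0.15 in the TC32 clones, at 0.21, 0.32 and 0.57 after 72 h, and at 0.23, -0.13 and -0.05 in parental cells. In TC71 PBX2 stood at 0.20, -0.34 and -0.60 in clones, at -0.09, -0.11 and -0.07 after 72 h, and at 0.08, -0.08 and 0.04 in parental cells. Its 4 probe sets, on chromosome 6, also align to chromosome 3, so its value may hold signal from a near copy. PBX3 stood at -0.07, -0.10 and 0.16 in the TC32 clones, at -0.07, -0.78 and -0.72 after 72 h, and at 0.35, 0.07 and -0.18 in parental cells. In TC71 PBX3 stood at 0.43, -0.56 and 0.77 in clones, at -0.20, -0.98 and 0.16 after 72 h, and at 0.57, 0.09 and 0.44 in parental cells, and its groups overlapped in both lines.

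The comparison of 72 h treatment with parental cells asks for the early response, and it shares the parental arrays with the comparison of the clones. No member passed in either line by limma, where 2.20% of all genes were called in TC32 and 0.149% in TC71. At an unadjusted p below 0.05 there were 7 members in TC32 (lowest adjusted p 0.113, MEIS1) and 1 in TC71 (HOXB5, adjusted p 0.237). Of all 12750 genes, 1890 in TC32 and 1347 in TC71 were below that limit. The groups did not overlap for 9 members in TC32 and 8 in TC71, against 20.2% and 25.2% of all genes.

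Of the larger TC32 differences at 72 h, none of which passed in the main model, those of HOXD11 (0.83) and MEIS1 (0.63) are given above. PBX3 differed by -0.60 (SE 0.34; adjusted p = 0.49), and its treated arrays overlapped the parental ones. HOXB13 differed by 0.81 (SE 0.36; adjusted p = 0.315) and HOXC11 by -0.90 (SE 0.34; adjusted p = 0.212). HOXD3, the anterior HOXD gene that patterns the neck vertebrae, stood at 0.28, 0.57 and 1.01 after 72 h and at -0.06, 0.13 and 0.15 in parental cells, a difference of 0.55 (SE 0.24; adjusted p = 0.309). In HOXB13, HOXC11 and HOXD3 the treated arrays did not overlap the parental ones. HOXC11 passed when TC32 72 h replicate 1 was left out, so 1 of 36 members did in that fit.

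Parental TC32 and TC71 did not differ in any member by limma, where 0.0471% of all genes were called, and no member reached an unadjusted p below 0.05 (lowest adjusted p 0.658). Of all 12750 genes, 981 reached that limit. The groups did not overlap for 10 members, against 32.0% of all genes. HOXC10 had the largest gap, with -0.18, 0.06 and 0.49 in TC32 and -1.41, -0.21 and -1.06 in TC71, a difference of 1.02 (SE 0.51; adjusted p = 0.705). TC32 parental replicate 1 resembled TC71 over the array as a whole, and without any 1 of the 6 arrays the count was still 0.

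The difference between the lines was also tested directly, as the TC32 change minus the TC71 change. No member passed at 72 h, where 0.376% of all genes were called, and 2 had an unadjusted p below 0.05 (lowest adjusted p 0.499). Of all 12750 genes, 1020 were below that limit at 72 h. No member passed in the clones, where 0.235% of all genes were called, and 5 had an unadjusted p below 0.05 (lowest adjusted p 0.17, HOXC8). Of all 12750 genes, 1520 were below that limit in the clones. Among the 5 members were HOXC4, HOXC6, HOXC8 and MEIS1, with line differences of 1.57, 0.97, 1.54 and -0.90. HOXC8 passed when TC32 clone CP was left out and HOXC6 when TC71 clone C5 was. That a gene passed in TC32 and not in TC71 is therefore not shown to be a difference between the lines.

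Listed regulators of HOX chromatin were counted in the same comparisons. Polycomb proteins, which keep HOX genes silent, were measured by 22 of 23 listed genes, and trithorax and H3K27 demethylase proteins, which keep them active, by 10 of 13. Against parental cells none of the 22 Polycomb genes passed by limma in any group, with 1 to 5 at an unadjusted p below 0.05. Of all 12750 genes, 1347 to 2520 were below that limit in these comparisons. Relative to the 72 h arrays, 1 of the 22 fell in the TC32 clones (6 at an unadjusted p below 0.05), where 14.8% of all genes were called. Of all 12750 genes, 3391 had an unadjusted p below 0.05 there. In the TC71 clones 1 of the 22 rose, where 2.50% of all genes were called. This was SUZ12, a subunit of Polycomb complex PRC2, which rose by 0.43 in the TC71 clones relative to the 72 h arrays (SE 0.09; adjusted p = 0.022). KMT2A, a histone methyltransferase that maintains HOX expression, rose by 1.12 in the same comparison (SE 0.21; adjusted p = 0.016), as 1 of the 10 trithorax and demethylase genes.

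PSIP1, which tethers KMT2A to chromatin, was the regulator that passed at 72 h. It was 1 of the 10 trithorax and demethylase genes in TC32, where 2.20% of all genes were called. It stood at 0.16, 0.14 and -0.23 in the TC32 clones, at -0.92, -1.36 and -1.35 after 72 h, and at 0.01, -0.13 and -0.03 in parental cells. PSIP1 fell by 1.16 at 72 h relative to parental cells (SE 0.14; adjusted p = 0.00146) and was higher by 1.23 in the clones than at 72 h (adjusted p = 0.000284). In TC71 it stood at -0.11, 0.33 and -0.12 after 72 h and at 0.09, 0.12 and 0.18 in parental cells. The line difference of -1.06 passed (SE 0.20; adjusted p = 0.0497), where 0.376% of all genes were called. None of the 10 trithorax and demethylase genes passed in the clones against parental cells, and 0 had an unadjusted p below 0.05. Of all genes, 6.31% were called there in TC32 and 1.09% in TC71.

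Markers of the line and of other cells were counted beside these results. Of 6 Ewing sarcoma markers none passed by limma against parental cells in any group (at most 1 at an unadjusted p below 0.05), and STEAP1, a membrane protein induced by EWS-FLI1, rose by 0.82 in the TC32 clones relative to the 72 h arrays (adjusted p = 0.0105). Of 9 leukocyte, fibroblast and epithelial markers none passed by limma against parental cells (at most 2 at an unadjusted p below 0.05). In the TC32 clones 7 of the 9 were higher than in parental cells, with a median difference of 0.00 and differences from -1.78 to 3.11. The extremes were LUM, a fibroblast matrix protein, at 3.11 (SE 0.97; adjusted p = 0.0754), and PDGFRB, a receptor of fibroblasts and pericytes, at -1.78 (SE 0.58; adjusted p = 0.0886). These were the 2 markers at an unadjusted p below 0.05 in this comparison. PTPRC, the leukocyte surface protein CD45, was listed with the leukocyte markers LAPTM5 and CD53, and none of them reached that limit. It stood at 3.31, -0.02 and 4.44 in the TC32 clones and between -0.01 and 0.05 in the treated and parental TC32 arrays. The PTPRC difference of 2.57 did not pass (SE 1.21; adjusted p = 0.262). LUM stood at 0.93, 0.42 and 0.83 in the TC32 clones, at -2.46, -3.01 and -3.36 after 72 h, and at 0.48, -2.58 and -5.04 in parental cells. It rose by 3.67 in the TC32 clones relative to the 72 h arrays (SE 0.97; adjusted p = 0.0229). The part of these markers in the HOX values was not tested.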

How the data were processed

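RNA of 18 samples was hybridised to Affymetrix U133A 2.0 arrays. Per the labels, the authors made the deposited log2 values in GeneSpring GX 12.1 at its default settings. They are centred, with every probe set (22277) at a median of 0, and ran from -10.65 to 11.66. The 2 deposited tables were identical (largest difference 0). Controls (62), probe sets with several genes (583) or none (1258) were left out. Gene symbols were updated through Entrez identifiers (20226 matched, 1672 changed), and probe sets of 1 gene were averaged.

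All comparisons came from 1 limma (3.58.1, R 4.3.3) model of 6 group means with a common spread per gene (residual degrees of freedom 12, prior 0.83), adjusted over 12750 genes and tested on simulated data. Figures used matplotlib 3.10.9. The number of arrays limits the precision.

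The members and lists were chosen with earlier results of these data known. Values in every array are given for most members past the threshold, PBX2, PBX3, MEIS1, HOXD10, HOXD11, HOXD13 and the member with the largest SD in each cluster, and other members are named beside a count or a difference they illustrate. Of listed regulators and flanking genes, those past the threshold are given, at most 2 a list and comparison. A list of other TALE genes is not reported here, nor are single genes from the members and the regulators. Groups sharing replicate numbers gave correlations of same-numbered deviations of 0.19, 0.01 and 0.33 (TC32, 72 h and parental), -0.02, 0.04 and 0.03 (TC71). With 3 arrays a group, these values cannot show whether the numbers pair samples. The main model treated the arrays as unpaired. Alternatives were repeated quantile normalization, median centring, the probe set with the largest SD, no _x_at or _s_at probe sets, trend and robust moderation, an SD filter of 0.1, a fit of the compared groups only, a replicate block, a threshold of 0.01, leaving out each array, and leaving out 4 arrays together.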

Additional observations from a re-analysis of the deposited data

Results flagged for a closer look

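In 4 cases every array of one line lay on the opposite side of its parental mean from every array of the other line. At 72 h this held for HOXC6, with changes of 0.38 in TC32 and -0.08 in TC71 (TC32 change minus TC71 change 0.46; adjusted p = 0.837), and for PBX2, with 0.35 and -0.10 (0.45; adjusted p = 0.687). In the clones it held for HOXB6, with 0.04 in TC32 and -0.12 in TC71 (0.16; adjusted p = 0.702), and for HOXC5, with 0.28 and -0.14 (0.42; adjusted p = 0.437). None of these differences passed over all genes. Some of the arrays lay within the spread of the parental arrays. For HOXC6, TC71 72 h replicate 1 stood at 0.01, with parental TC71 arrays from -0.06 to 0.11. For HOXB6, TC32 clones C1 and C4 stood at 0.00, with parental TC32 arrays from -0.11 to 0.01.

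Probe sets shared between genes stayed outside the gene values, and 2 of the 4 gave signals above all parental arrays of the line. A probe set assigned to HOXD3, HOXD4 and MIR10B, was higher than in parental cells by 0.83 in TC32 at 72 h and by 0.30 in the TC71 clones. A probe set assigned to FAM36A and HOXA7, was higher by 1.03 in TC32 at 72 h and by 0.60 in the TC71 clones. These differences were not tested, and they cannot be given to 1 of the genes.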

How the results depend on the processing

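No called value changed sign. Of the alternatives for counts of called members, 121 left the count within 1.5 times and 30 did not. The 121 include counts of 0 that stayed at 0. Where members were called against parental cells, leaving out 1 array kept and moved the count in 5 and 1 fits (TC32) and 3 and 3 (TC71). Other settings gave 7 and 2 (TC32) and 3 and 6 (TC71). Against 72 h, leaving out 1 array gave 2 and 4 (TC32) and 3 and 3 (TC71). Other settings gave 5 and 4 in each line. Of the alternatives for single called genes, 146 kept the call and 44 lost it. In TC32 clones against parental cells, 4 members were called in the model of all groups, 2 without _x_at and _s_at probe sets (26 members measured) and 0 when only the groups compared were fitted, where HOXB7, HOXC6, HOXC8 and MEIS1 had adjusted p-values of 0.0879, 0.106, 0.193 and 0.153. All probe sets of HOXB7 and HOXC6 are of the _x_at or _s_at type, so neither gene was measured in the fits without them. In TC71 clones against parental cells the 1 call, HOXB7, became 0 with median centring, with the probe set of largest SD, without the 4 arrays, with only the groups compared and at a threshold of 0.01. Without _x_at and _s_at probe sets the count was also 0, because HOXB7 was not measured there. In TC32 clones against 72 h, the 8 calls became 5 with quantile normalization, 5 without the 4 arrays, 4 with only the groups compared and 4 at 0.01. In TC71 clones against 72 h, the 1 call became 0 without _x_at and _s_at probe sets (HOXB7 not measured), with only the groups compared and at 0.01, and 2 (HOXB2 and HOXB7) with an SD of at least 0.1. Without the 4 arrays the calls numbered 4 in TC32 clones against parental cells, 1 in TC71 clones against 72 h, and 0 at 72 h in each line, between parental lines and for both line differences, the same counts as with them. A fit of 2 groups has fewer residual degrees of freedom and takes its spread from those groups alone. In the TC32 clones HOXB7, HOXC6, HOXC8 and MEIS1 had SDs of 0.40, 0.22, 0.75 and 0.44. Their SDs were 0.22, 0.11, 0.21 and 0.16 at 72 h and 0.17, 0.32, 0.39 and 0.18 in parental TC32 cells. What each of these adds to the lost calls was not tested. MEIS1, HOXB7 and HOXB13 kept their call in TC32 clones against 72 h in every fit in which they were measured at the 0.05 threshold.

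With 1 array left out, counts ranged from 2 to 5 (TC32 clones against parental), 0 to 1 (TC71 clones against parental), 4 to 9 (TC32 clones against 72 h), 0 to 1 (TC71 clones against 72 h), 0 to 1 (TC32 at 72 h), and 0 to 1 (line difference in the clones), and stayed at 0 for TC71 at 72 h, the parental lines and the line difference at 72 h. The replicate block gave 0 called members in the 72 h comparison of each line, the parental comparison and the line difference at 72 h, as the fits without it did. Counts over all genes also moved. They were 281 in TC32 at 72 h (1 to 673 over all alternatives), 19 in TC71 at 72 h (2 to 476), 805 in TC32 clones (68 to 1214) and 139 in TC71 clones (0 to 408). Against 72 h they were 1890 in TC32 clones (834 to 2165) and 319 in TC71 clones (14 to 533). They were 6 between parental lines (0 to 291), 48 for the line difference at 72 h (16 to 164) and 30 for that in the clones (0 to 289). The cause of these shifts was not tested. Signal over background could not be read from these values.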
